A study of Ascodesmis nigricans with 6 samples.

Results

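Of the 9622 Ascodesmis nigricans gene models in the deposited count table, 37 met a rule for a 2-fold lower level in sexual mycelium alone. Their mean levels in the young fruiting body and in vegetative mycelium lay within 3-fold of each other. These genes were chosen by their measured levels in CPM, a gene's raw count divided by the library's total count and multiplied by 1000000. Every protoapothecia and vegetative library had to reach 20 CPM, the lowest of these 4 libraries had to be at least 2 times the higher sexual library, and the protoapothecia and vegetative means had to lie within 3-fold of each other. The low level in sexual mycelium and the limited gap between the other tissues are therefore set by the choice, and the values below describe it without a test.

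Ascodesmis nigricans is a filamentous ascomycete whose open fruiting bodies, the apothecia, begin as small protoapothecia on the mycelium. Vegetative mycelium is the network of growing hyphae, whereas sexual mycelium is the network in which fruiting bodies are started. In filamentous ascomycetes the step to a fruiting body is known to come with broad changes in transcript levels. Genes lower in sexual mycelium than in both other tissues are among the patterns that a comparison of 3 tissues can show.

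RNA sequencing covered 3 groups of strain CBS 389.68 with 2 libraries each: total sexual mycelium, protoapothecia and total vegetative mycelium. All were grown for 3 days at 25 °C on slides with a thin layer of rabbit food agar and fixed in ethanol, and RNA was linearly amplified before sequencing. Per the labels, only the protoapothecia were cut out by laser microdissection, so in any comparison with them the tissue and the way it was collected cannot be told apart. The labels give neither a genetic change nor an agent for any group, they call the replicates independent, and they do not say whether the total sexual mycelium still held its protoapothecia. In such bulk samples fewer cells of a type and less RNA per cell cannot be told apart. The library totals lay between 11589777 and 12835772 counts. Each gene model is listed by a protein identifier alone, so no function is given for any of them and the tissues were not checked against marker genes.

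The 37 genes took a small share of the sexual libraries and a several times larger share of the others. Their summed counts made up 1.53% and 1.90% of the library totals in sexual mycelium, 6.77% and 7.49% in protoapothecia, and 6.89% and 6.45% in vegetative mycelium. Both sexual libraries lay far below the 4 others, and the protoapothecia and vegetative libraries overlapped. Over the 37 genes the mean level was 2.29-fold to 8.33-fold lower in sexual mycelium than in protoapothecia, with a median of 3.67-fold. Against vegetative mycelium it was 2.35-fold to 8.51-fold lower, with a median of 3.63-fold. These folds are by library totals, and their size depended on the scaling, as given with the fit below. The lowest count behind any of these values was 56, for proteinId357897 in sexual replicate 1.

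**Figure D1:**
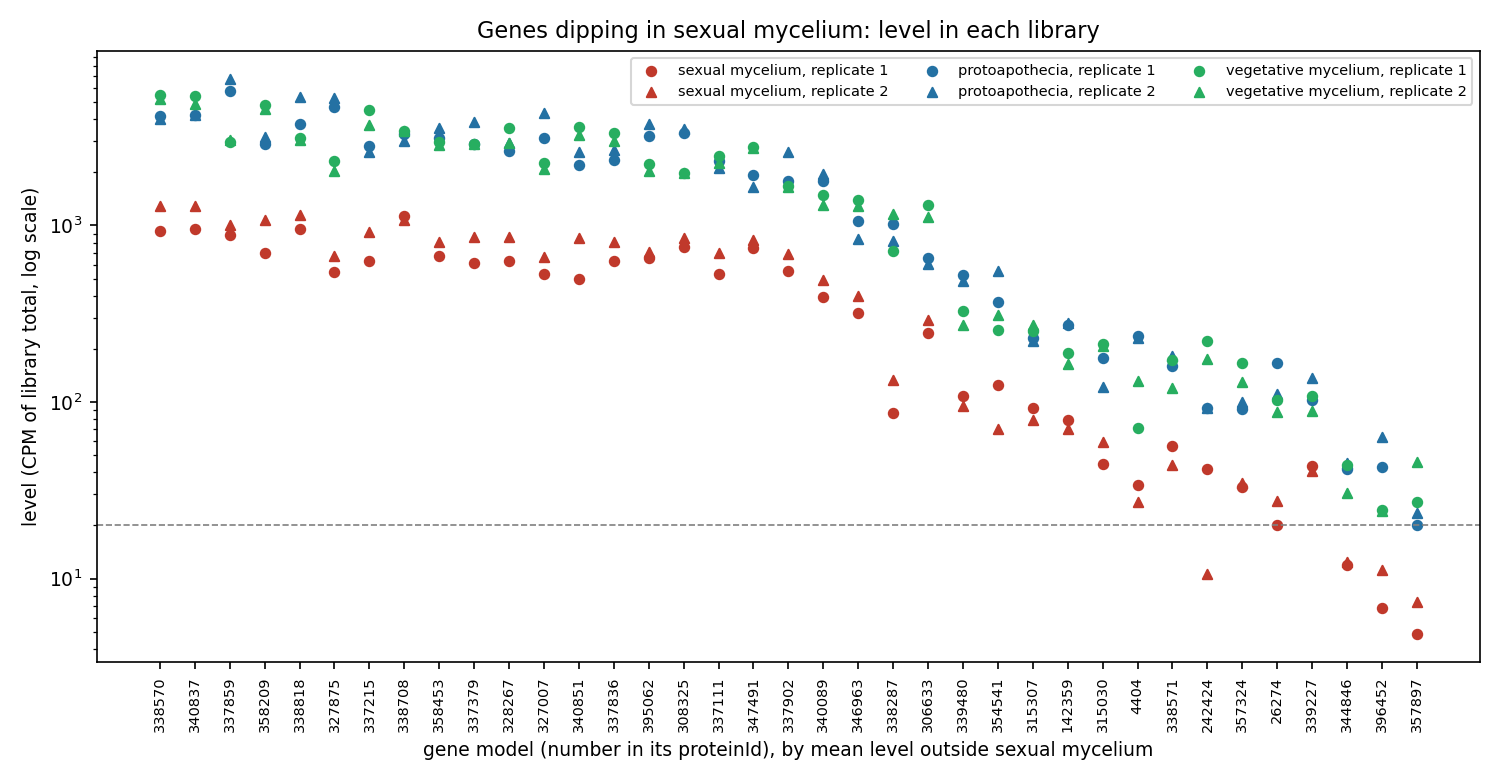
Level of each of the 37 genes in each of the 6 libraries, in CPM of the library total on a log axis, with genes ordered by their mean level in protoapothecia and vegetative mycelium and the dashed line at 20 CPM. The 2 sexual libraries lie below the other 4 for each gene, by at least 2 times through the rule, and 20 genes lie at 1000 CPM or more in all 4 of the others.

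By the rank of a gene within its own library, which no library-wide factor can change, the genes were placed lower in sexual mycelium. The ranks come from the same counts that the rule used, so this lower place largely restates the choice. Ranks were taken over all 9622 gene models by CPM per kb of mRNA, with 1 as the highest. The median rank of the 37 genes was 264 and 219 in the sexual libraries, 63 and 67 in the protoapothecia libraries, and 108 and 112 in the vegetative libraries. Of the 100 highest ranks, the genes held 3 and 4 in sexual mycelium, 22 and 22 in protoapothecia, and 18 and 17 in vegetative mycelium. Of the 500 highest ranks they held 22 in each sexual library and 24 in each other library. Many of the genes were therefore still among the more abundant transcripts of sexual mycelium, at a lower place.

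**Figure D2:**
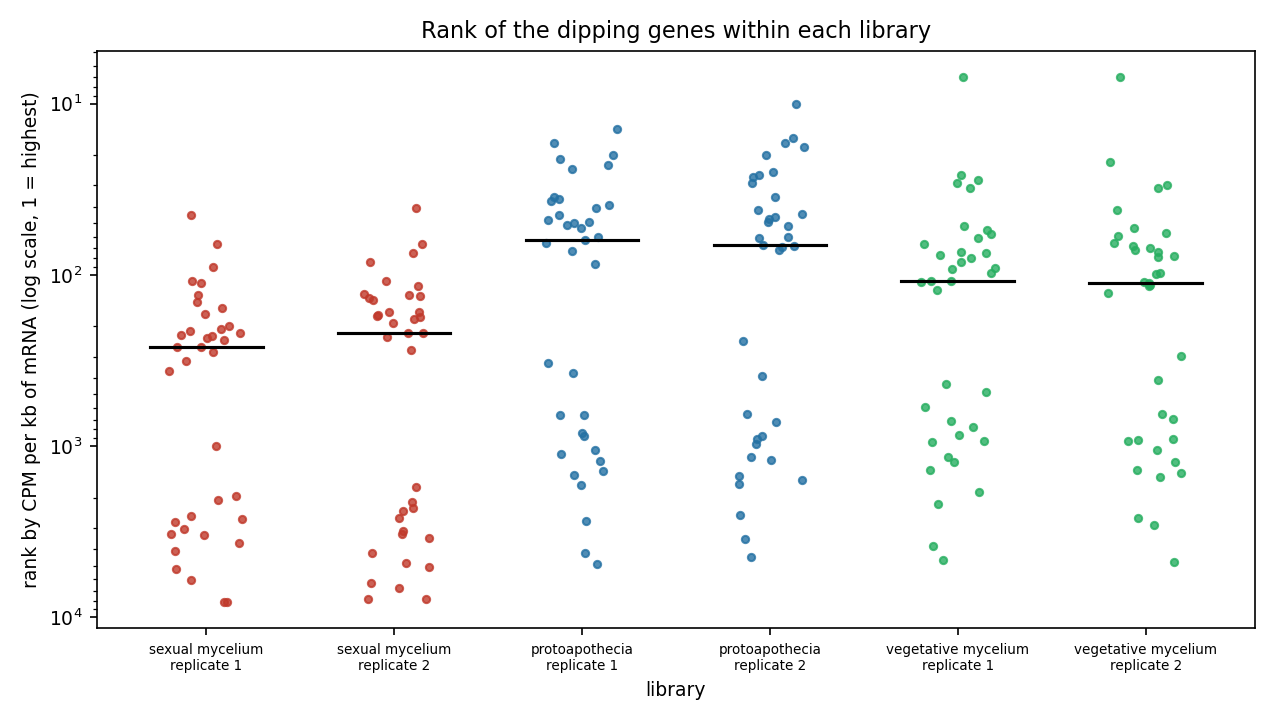
Rank of each of the 37 genes within each library by CPM per kb of mRNA, on an inverted log axis where 1 is the highest of 9622, with a black line at the median. The median is 264 and 219 in the sexual libraries, 63 and 67 in protoapothecia, and 108 and 112 in vegetative mycelium.

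The genes were divided by their level in CPM, and those of the highest class are called abundant here. There were 20 genes whose lowest level in the 4 protoapothecia and vegetative libraries was 1000 CPM or more, 9 genes with 100 to under 1000 CPM, and 8 genes with 20 to under 100 CPM. These classes were drawn after the values were seen, and they do not allow for mRNA length. For example, proteinId306633, with 249 bases, is not in the abundant class. By CPM per kb it ranked 65 and 69 in protoapothecia and 29 and 42 in vegetative mycelium. The abundant proteinId340851, with 1133 bases, ranked lower, at 87 and 72 in protoapothecia and 93 and 99 in vegetative mycelium. The 20 abundant genes alone held 1.40% and 1.76% of the sexual libraries, 6.24% and 6.99% of the protoapothecia libraries, and 6.33% and 5.89% of the vegetative libraries. Their level was 391 to 1134 CPM and 489 to 1293 CPM in the 2 sexual libraries, 1786 to 5809 CPM and 1652 to 6796 CPM in the protoapothecia libraries, and 1485 to 5452 CPM and 1307 to 5203 CPM in the vegetative libraries. In CPM the highest sexual value of any abundant gene, 1293, was thus just below the lowest vegetative value of any of them, 1307. By CPM per kb of mRNA this did not hold. On that scale proteinId347491 averaged 2340 in sexual mycelium, above the 2235 of proteinId358453 in vegetative mycelium.

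The share of dipping genes was then taken by level. The level class is the lowest of the 4 protoapothecia and vegetative libraries, which is also the numerator of the dip ratio, so the 2 are coupled by construction and the shares are a description only. Of the genes that met every condition except the dip or met all of them, 48 reached 1000 CPM in all 4 libraries, and 20 of these (41.7%) dipped in sexual mycelium. The share was 9 of 387 genes (2.33%) at 100 to under 1000 CPM and 8 of 1165 genes (0.687%) at 20 to under 100 CPM, and 37 of 1600 (2.31%) in all. The median ratio of the lowest of the 4 libraries to the higher sexual library was 1.74 among the 48 genes, 0.638 among the 387 and 0.475 among the 1165. This ratio was above 1 in 35 of the 48 genes, 88 of the 387 and 100 of the 1165. These counts depended on the scaling: with CPM scaled by trimmed mean of M-values (TMM) factors, which allow for unequal RNA composition between libraries, where the classes hold 54, 453 and 1228 genes from the highest level to the lowest, the ratio was above 1 in 48 (88.9%), 223 (49.2%) and 352 (28.7%).

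**Figure D3:**
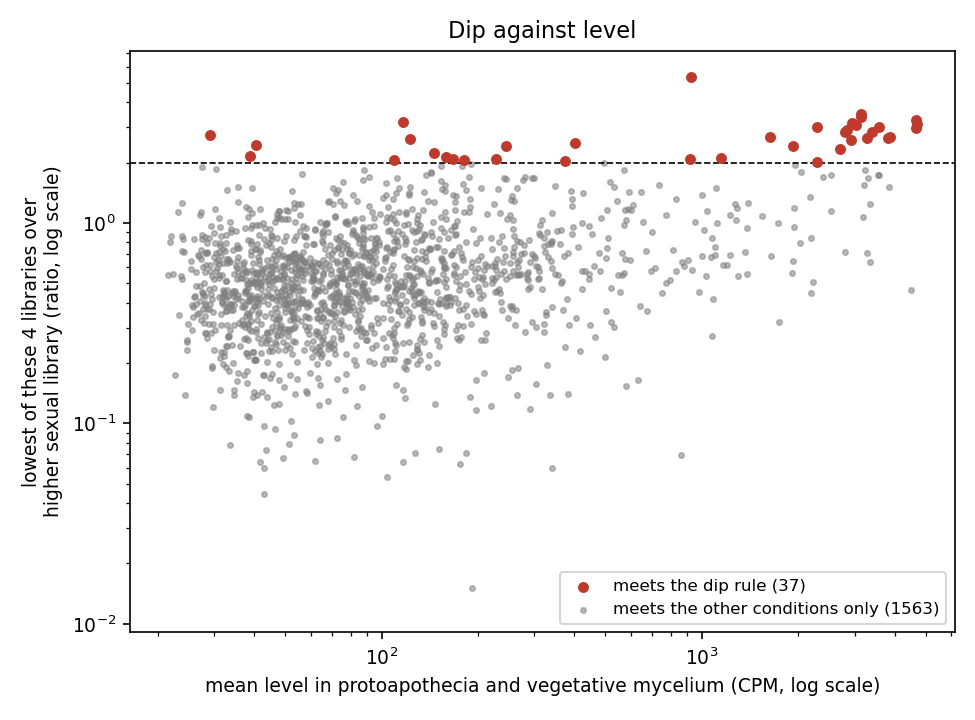
Ratio of the lowest protoapothecia or vegetative library to the higher sexual library against the mean level in protoapothecia and vegetative mycelium, both on log axes, for the 1600 genes with 20 CPM or more in these 4 libraries and means within 3-fold. Red points are the 37 genes at or above the dashed line at 2, grey points the 1563 others, and red points are denser at the high end of the level axis, whose values also enter the ratio.

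The largest dip was that of proteinId338287, with an mRNA of 2127 bases. It had 86.4 and 134 CPM in sexual mycelium, 1015 and 821 CPM in protoapothecia, and 714 and 1160.3 CPM in vegetative mycelium. Its lowest value outside sexual mycelium was 5.33 times its higher sexual value, and its mean was 8.33-fold lower in sexual mycelium than in protoapothecia and 8.51-fold lower than in vegetative mycelium. The protoapothecia values lay between the vegetative ones, so those tissues overlapped. No other gene of the 37 had a ratio above 3.51.

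Of the 8 genes with the largest dips, 6 belonged to the abundant group. The gene proteinId358453 (1304 bases) had 671 and 811 CPM in sexual mycelium, 3147 and 3581 CPM in protoapothecia, and 2983 and 2845 CPM in vegetative mycelium. For proteinId337379 (758 bases) the values were 615 and 858 CPM in sexual mycelium, 2912 and 3842 CPM in protoapothecia, and 2888 and 2889 CPM in vegetative mycelium. In both genes the protoapothecia libraries lay above the vegetative ones, by less than 1.5-fold of the means. The reverse order held for proteinId340837 (1286 bases), with 957 and 1288 CPM in sexual mycelium, 4203 and 4219 CPM in protoapothecia, and 5380.2 and 4850.3 CPM in vegetative mycelium. It also held for proteinId338570 (1046 bases), with 936 and 1293 CPM in sexual mycelium, 4183 and 4004 CPM in protoapothecia, and 5452 and 5203 CPM in vegetative mycelium. These 4 genes were 3.67-fold to 4.59-fold lower in sexual mycelium than in protoapothecia and 3.92-fold to 4.78-fold lower than in vegetative mycelium.

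Of the other 2 abundant genes in that list, proteinId327007 (837 bases) had 533 and 663 CPM in sexual mycelium, 3141 and 4325 CPM in protoapothecia, and 2261 and 2087 CPM in vegetative mycelium. The gene proteinId328267 (847 bases) had 630.2 and 857 CPM in sexual mycelium, 2637 and 2950.2 CPM in protoapothecia, and 3581 and 2942 CPM in vegetative mycelium. Only the protoapothecia libraries of proteinId327007 stood clear of the vegetative ones, since those of proteinId328267 overlapped with them. The remaining gene of the 8, proteinId26274 (1391 bases), was much less abundant, at 20.1 and 27.7 CPM in sexual mycelium, 167 and 111 CPM in protoapothecia, and 102 and 88.0 CPM in vegetative mycelium. Its dip of 3.18 times was close to those of the abundant genes, so large dips were not limited to them.

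Between genes, levels were compared by CPM per kb of mRNA, and the 6 genes highest on this scale outside sexual mycelium had mRNAs of 336 to 1046 bases. The gene proteinId347491, with 336 bases, averaged 2340 CPM per kb in sexual mycelium, 5350.0 in protoapothecia and 8236 in vegetative mycelium. On the same scale proteinId337859 (849 bases) averaged 1109 in sexual mycelium, 7423 in protoapothecia and 3536 in vegetative mycelium, and proteinId338708 (640 bases) averaged 1729, 4928 and 5352 in the same order of tissues. The genes proteinId308325 (540 bases) and proteinId395062 (564 bases) averaged 1482 and 1212 CPM per kb in sexual mycelium, 6319 and 6186 in protoapothecia, and 3664 and 3772 in vegetative mycelium. The sixth by this level was proteinId338570, described above. In single libraries, proteinId338708 had 1134 and 1079 CPM in sexual mycelium, 3301 and 3007 CPM in protoapothecia, and 3439 and 3411 CPM in vegetative mycelium, so the other 2 tissues lay close together.

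The mRNAs of the 37 genes, a property the rule did not use, ranged from 249 to 3130 bases. Their median was 1046 bases, against 1478 among the 1563 genes that met the other conditions without the dip and 1230 among all gene models. Length went with level, however: the median was 848 bases among the 20 abundant genes and 884 among all 48 genes of that level. At 100 to under 1000 CPM the medians were 1401 bases for the dipping genes and 1354 for all genes of the level, and at 20 to under 100 CPM they were 1360 and 1593. Within a level the median of the dipping genes was thus close to that of all genes of the level, the dipping ones included. The lowest level, with its 8 genes, was the exception. The shortest was proteinId306633 with 249 bases, and the longest were proteinId396452 with 3130 and proteinId339480 with 2500. The gene proteinId339480, at 108 and 95.4 CPM in sexual mycelium, 526 and 483 CPM in protoapothecia, and 327 and 272 CPM in vegetative mycelium, had 3 separate levels.

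Between protoapothecia and vegetative mycelium the genes leaned to both sides. The mean was higher in protoapothecia for 19 genes and lower for 18, with ratios of protoapothecia over vegetative means from 0.467 to 2.31 and a median of 1.15. Both protoapothecia libraries lay above both vegetative ones in 16 genes and below both in 15, and they overlapped in 6 (43.2%, 40.5% and 16.2%). Among the 1563 genes that met the other conditions without the dip, 42.2% lay above, 37.9% below and 19.8% overlapped, close to the shares among the 37. The ratio was within 1.5-fold for 20 genes (54.1%) and within 2-fold for 32 (86.5%), against 44.3% and 72.3% of the 1563. The last difference was not tested, since the rule uses the same levels.

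The strongest lean to protoapothecia was that of proteinId4404 (1519 bases), with 34.0 and 27.01 CPM in sexual mycelium, 236 and 230.5 CPM in protoapothecia, and 70.9 and 131 CPM in vegetative mycelium. Its vegetative replicates differed 1.85-fold, and by vegetative replicate 1 alone the ratio of protoapothecia to vegetative mycelium was 3.29, past the limit of the rule. The abundant proteinId327875 (854 bases) had 545 and 676 CPM in sexual mycelium, 4701 and 5272 CPM in protoapothecia, and 2310 and 2039.7 CPM in vegetative mycelium. It was 8.17-fold lower in sexual mycelium than in protoapothecia and 3.56-fold lower than in vegetative mycelium, so its 3 tissues formed 3 separate levels. The same held for proteinId337859, with 882 and 1000.03 CPM in sexual mycelium, 5809 and 6796 CPM in protoapothecia, and 2967 and 3037 CPM in vegetative mycelium. The third by this ratio, proteinId396452, was weak throughout, at 6.82 and 11.1 CPM in sexual mycelium, 42.6 and 63.7 CPM in protoapothecia, and 24.6 and 24.1 CPM in vegetative mycelium.

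On the opposite side, proteinId242424 (1328 bases) had 41.6 and 10.6 CPM in sexual mycelium, 92.8 and 92.4 CPM in protoapothecia, and 220.5 and 176 CPM in vegetative mycelium. Its sexual replicates differed 3.91-fold, the widest gap among the 37 genes, and its dip of 2.22 times is measured from sexual replicate 1, the higher one. The shortest gene, proteinId306633, had 245 and 290.1 CPM in sexual mycelium, 654 and 606 CPM in protoapothecia, and 1301 and 1113 CPM in vegetative mycelium. Here too the libraries formed 3 separate levels, with protoapothecia in the middle. The gene proteinId357897 (2157 bases) had the lowest levels of the 37 in sexual mycelium and protoapothecia, at 4.83 and 7.34 CPM in sexual mycelium, 20.1 and 23.4 CPM in protoapothecia, and 27.2 and 45.9 CPM in vegetative mycelium. Its first protoapothecia library was just above the limit of 20 CPM.

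**Figure D4:**
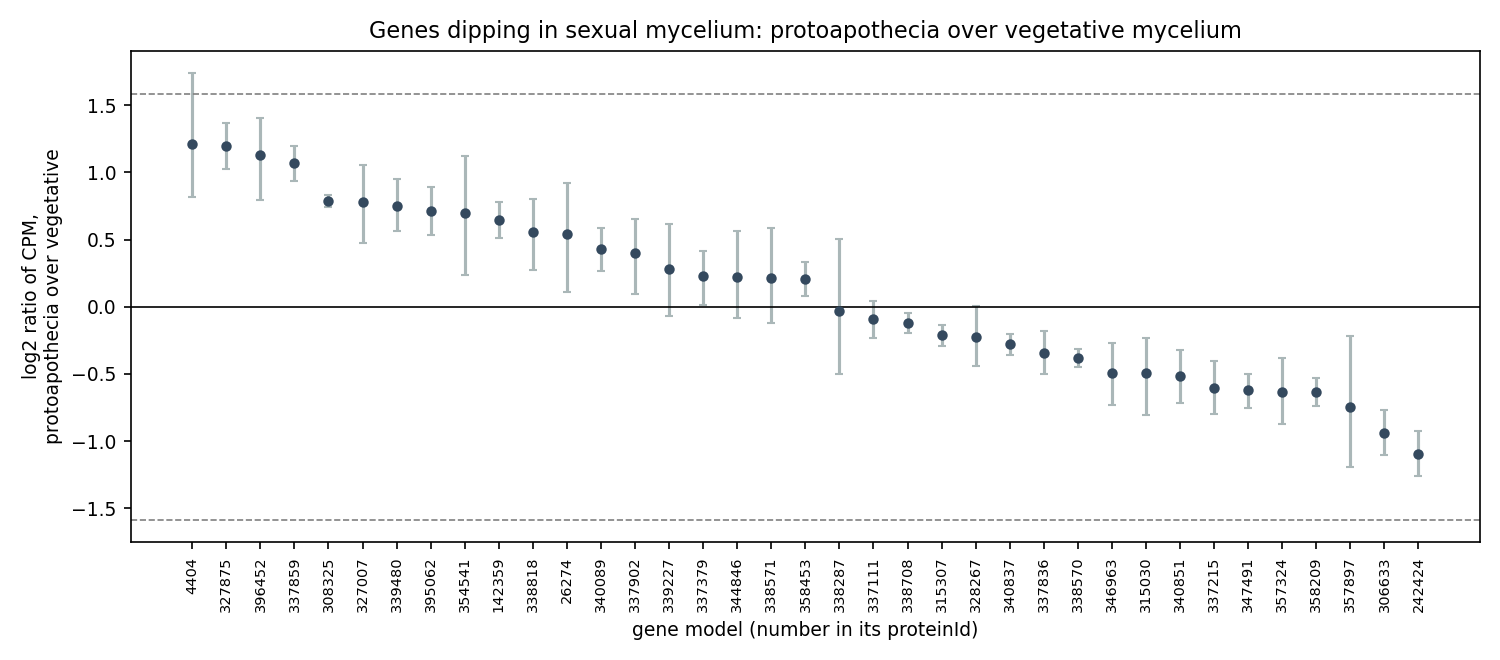
Ratio of protoapothecia to vegetative mycelium for the 37 genes on a log2 axis, with points for the ratio of the means and bars from the lowest to the highest ratio of single libraries. Dashed lines mark the 3-fold limit of the rule; 19 genes lie above 0 and 18 below, and the ratios run from 0.467 to 2.31 on the linear scale.

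Replicates agreed to within 1.5-fold for most of the genes. The sexual libraries were more than 1.5-fold apart in 7 of the 37 genes, the protoapothecia libraries in 2 and the vegetative libraries in 3. Among the 1563 genes that met the other conditions only, the shares were 22.3%, 12.3% and 4.54% in that order of tissues, against 18.9%, 5.41% and 8.11% among the 37. After proteinId242424, the widest sexual gaps were those of proteinId354541 (873 bases) and proteinId340851 (1133 bases). The first had 125 and 70.5 CPM in sexual mycelium, 368 and 555 CPM in protoapothecia, and 255 and 313 CPM in vegetative mycelium. The second had 500.4 and 854 CPM in sexual mycelium, 2208 and 2608 CPM in protoapothecia, and 3628 and 3252 CPM in vegetative mycelium. Their sexual replicates differed 1.78-fold and 1.71-fold, less than the 2 times set by the rule, whereas the 3.91-fold gap of proteinId242424 was wider than its dip of 2.22 times.

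At the limit itself the choice was narrow. Just inside were proteinId347491, whose lowest other library was 2.004 times its higher sexual library, and proteinId354541, at 2.04 times. Just outside were proteinId392711 at 1.99 times and proteinId338620 at 1.98 times. In single libraries proteinId347491 had 748 and 824 CPM in sexual mycelium, 1943 and 1652 CPM in protoapothecia, and 2782 and 2753 CPM in vegetative mycelium. The excluded proteinId392711 had 225 and 136 CPM in sexual mycelium, 456 and 448 CPM in protoapothecia, and 534 and 547 CPM in vegetative mycelium, a profile of the same shape. The 15 genes not named here had dips of 2.06 to 3.02 times, ratios of protoapothecia over vegetative means of 0.644 to 1.56, and mRNAs of 342 to 1764 bases.

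A fit across the whole table, edgeR's quasi-likelihood test with TMM scaling and Benjamini-Hochberg adjustment over 8861 tested genes, set the genes beside all others. All 37 passed the filter on low counts, as their minimum of 20 CPM implies. All 37 were lower in sexual than in vegetative mycelium at an adjusted p under 0.05, where 14.8% of tested genes were lower, and all 37 were lower in sexual mycelium than in protoapothecia, where 30.7% were. The rule used these same libraries, so the counts restate the choice. The median fitted log2 fold change of the 37 genes was -2.51 for sexual mycelium over protoapothecia and -2.58 over vegetative mycelium, against 0.16 and 0.42 over all tested genes. With library totals in the same fit the medians were -1.88 and -1.86, against 0.78 and 1.14 over all tested genes. With median-of-ratios factors they were -2.83 and -2.83, against -0.15 and 0.18, so the size of the dip depended on the scaling. The 2 comparisons share the sexual libraries.

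In the comparison of protoapothecia with vegetative mycelium, 8 of the 37 genes were higher in protoapothecia and 5 were lower by the same test, where 39.8% of tested genes were higher and 35.3% lower. The rule limits this difference as well, so nothing is read from these counts. The 8 higher genes included proteinId327875, with a fitted log2 fold change of 1.11 (edgeR adjusted p = 0.00393), and the 5 lower genes included proteinId306633, with -1.03 (edgeR adjusted p = 0.00509). The median over the 37 genes was 0.12, against 0.15 over all tested genes. The total of 13 depended on single libraries, with 3 without vegetative replicate 1, 3 without vegetative replicate 2, 7 without protoapothecia replicate 1 and 4 without protoapothecia replicate 2.

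In the authors' deposited table all 37 genes have a DESeq adjusted p under 0.05 in both comparisons with sexual mycelium. Those values rest on the same 6 libraries as the rule, so these calls too restate the choice. The deposited ratios of sexual over vegetative mycelium run from 0.06 to 0.22, and 19.8% of the genes with a deposited adjusted p are called lower there. The deposited ratios for the other pair are given as protoapothecia over sexual mycelium and run from 4.35 to 15.71, where 33.8% are called higher. For protoapothecia over vegetative mycelium the authors' deposited table calls 9 of the 37 genes higher and 5 lower, where 38.9% and 32.4% of its genes are called.

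Set beside the same rule with the tissues exchanged, a dip in sexual mycelium was the rarest of the 3 dips under library totals. It held for 37 genes, against 1112 that dipped in protoapothecia alone and 558 that dipped in vegetative mycelium alone. The mirror rule, in which the lower library of a tissue reaches 20 CPM and at least 2 times the highest of the others, gave 399 genes for sexual mycelium, 336 for protoapothecia and 131 for vegetative mycelium. These counts, of dips and peaks alike, moved with the scaling of the libraries. The TMM factors were 1.32 and 1.41 for the sexual libraries, 0.895 and 0.872 for protoapothecia, and 0.840 and 0.819 for vegetative mycelium, so that TMM scaling lowers every sexual value against the others. With TMM-scaled CPM the dips numbered 125 in sexual mycelium, 891 in protoapothecia and 251 in vegetative mycelium, and with median-of-ratios factors (RLE) 203, 739 and 167. The dip in sexual mycelium was then no longer the rarest with RLE factors. The peaks numbered 134 in sexual mycelium, 725 in protoapothecia and 322 in vegetative mycelium with TMM-scaled CPM, and 92, 906 and 404 with RLE factors, so sexual mycelium had the most peaks under library totals and the fewest under both other scalings.

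With 1 sexual library left out the rule has only 1 sexual value to meet, and 66 genes met it without sexual replicate 1 and 62 without sexual replicate 2. All 37 genes are among them by construction, since the dip of a gene can then only grow or stay as it was.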

How the data were processed

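RNA sequencing counts of 6 libraries, 2 for each of 3 tissues, were taken from 1 table. Its values are raw counts per gene model, per the file headers, beside mRNA lengths. The aligner, the counting tool, the strand setting and the genome build are all "not given in the sources used here", so genes with near-identical copies or overlaps are uncertain. The table also holds the authors' own ratios and adjusted p-values from DESeq, per the file headers, the deposited p-values rounded to 2 decimals; DESeq is also named, without a version, in the submitters' processing notes.

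CPM was computed from library totals. Genes were filtered with filterByExpr (8861 of 9622 kept). All libraries were fitted by group with edgeR 4.0.16 in R 4.3.3 (robust quasi-likelihood, TMM, 3 residual degrees of freedom). Calls were two-sided at a Benjamini-Hochberg adjusted p under 0.05. The fit was tested on simulated data with few changed genes, as many raised as lowered. Such data cannot speak to unequal RNA composition between libraries. Replicates were no duplicates: chi-square over degrees of freedom was 248 for sexual, 101 for protoapothecia and 42.0 for vegetative mycelium. P-values measure the spread between these libraries, and counting error ignores amplification. DESeq2 1.42.0 was an alternative. Figures used matplotlib 3.10.9.

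The genes and lists were chosen with earlier results of these data known. Named are the 8 largest dips, the 6 highest levels per kb, the 3 highest and 3 lowest ratios of protoapothecia to vegetative mycelium, the 3 widest sexual replicate gaps, the 2 longest and 2 shortest mRNAs, and the 2 genes on each side of the dip limit.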

Additional observations from a re-analysis of the deposited data

How the results depend on the processing

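The count of 37 genes became 125 with TMM-scaled CPM, 203 with RLE-scaled CPM, 80 with a dip of 1.5 times and 10 with a dip of 3 times, and leaving out 1 library gave 42 to 66. It was 38 and 34 with minimums of 10 and 40 CPM, 32 with means within 2-fold and 39 with no such limit. Leaving out vegetative replicate 2 removed proteinId4404. All 37 genes were called lower in sexual mycelium in both comparisons under each alternative fit in which every fitted group kept its 2 libraries. In those fits 41.6% to 60.8% of tested genes were called in either direction against vegetative mycelium, and 62.4% to 67.9% against protoapothecia. Without 1 library, the median fitted log2 fold change of the 37 genes ran from -2.72 to -2.54 over vegetative mycelium and from -2.73 to -2.46 over protoapothecia. The rule used these same libraries, so these values restate the choice. The 13 calls in protoapothecia over vegetative mycelium were 3 to 18 without 1 library, and the cause was not tested. The replicate block gave 37, 37 and 11 calls, against 37, 37 and 13. Replicate numbers pair nothing in the labels, and the deviations of same-numbered libraries had correlations of 0.04, -0.16 and -0.03. Between protoapothecia and vegetative mycelium, the fitted log2 fold change without 1 library ran from -0.459 to 0.278 for proteinId338287, from -0.006 to 0.224 for proteinId358453 and from -0.106 to 0.338 for proteinId337379, and the sign turned without vegetative replicate 2 for the first and without protoapothecia replicate 2 for the others, with no call.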

Other observations

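Within a tissue, the 37 genes leaned to 1 replicate more often than the 1563 genes that met the other conditions only. Sexual replicate 2 was above replicate 1 in 28 of the 37 genes (75.7%), against 63.5% of the 1563. Protoapothecia replicate 2 was above replicate 1 in 23 genes (62.2%), against 53.0%, and vegetative replicate 2 in 7 genes (18.9%), against 39.9%. These shares are of CPM by library totals, and their difference was not tested.

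The share of dipping genes by level was also taken with TMM-scaled CPM, a look added after the data were seen. It was 31 of 54 genes (57.4%) at 1000 or more TMM-scaled CPM, 61 of 453 (13.5%) at 100 to under 1000, and 33 of 1228 (2.69%) at 20 to under 100. The level is again the numerator of the dip ratio, so this order is in part built in and supports nothing.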
